A study of Mus musculus with 2 samples.

Results

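Open chromatin regions in gene deserts of mouse hematopoietic stem cells were described here. A member was an interval of the conservative series-level peak list whose summit lay outside every protein-coding gene and more than 100 kb from the nearest protein-coding transcription start site (TSS) in the mm10 annotation. Each interval was counted once, at the summit with the highest signal value. This gave 3276 desert regions among 43478 intervals, or 7.53% (95% Wilson interval 7.29 to 7.79). The members were chosen by position, and the signal value served only to pick the summit where an interval had several, as 26.8% of members did. The other intervals were 6215 intergenic ones at 20 to 100 kb from a TSS, 6009 intergenic ones at 1 to 20 kb, 14355 within genes and 13623 at promoters, within 1 kb of a TSS.

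The assay was ATAC-seq, in which the Tn5 transposase inserts adapters into DNA that is free of tightly packed chromatin. The series held 1 group of 2 libraries, and 50000 hematopoietic stem cells went into each. The donors were male C57BL/6J mice, 5 to 6 weeks of age. The labels call the libraries biological replicates with a biosample each but with 1 donor identifier for both, so whether their spread is that between animals cannot be told. No treatment and no altered genotype is named, no other cell type was measured, and which markers sorted the cells was not stated in the labels. Promoters were counted on gene lists chosen with earlier results of these data known, so the counts are no independent check of the cell type. Of listed blood stem cell transcription factors, 16 of 28 had a promoter peak in the thresholded lists of both replicates. So did 26 of 50 blood lineage transcription factors and 12 of 28 blood receptor and cytokine genes. The same held for 5 of 14 erythroid and platelet markers, 1 of 15 myeloid, 2 of 16 lymphoid and 3 of 15 endothelial and stromal markers. Over all 21911 protein-coding genes the share was 42.5%. In the less strict pseudoreplicated lists the counts were 26 of 28 stem cell factors, 40 of 50 lineage factors and 23 of 28 receptor and cytokine genes. They were 9 of 14 erythroid and platelet, 9 of 15 myeloid, 5 of 16 lymphoid and 9 of 15 endothelial and stromal markers, against 59.5% of all genes.

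Gene deserts are long stretches of the genome without protein-coding genes. Many of them flank genes of development and cell identity, and they are known to hold enhancers that act on a flanking promoter over a long distance. In blood stem cells such enhancers are commonly bound by factors of the ETS, RUNX, GATA and TAL1 families and by homeobox proteins such as MEIS, PBX and HOX. Other open sites in deserts bind CTCF, which organises chromatin loops, or are starts of long noncoding RNAs (lncRNAs). The nearest gene on either side is a position and not a shown target.

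Sequences that reach 100 bp to either side of the summit are shown for members that the results below turn on. All are from the forward strand of GRCm38 (mm10), in lower case. Capitals mark matches on either strand to the strings searched for ETS, RUNX, GATA, the E-box of TAL1 and E proteins, AP-1, CTCF, C/EBP, HOX with PBX, and MEIS. The first set holds the strongest members that were called in both replicates and whose summit 31-mer occurs once in the genome.
Between Nxph1 and Ndufa4, chr6:9889942-9890142: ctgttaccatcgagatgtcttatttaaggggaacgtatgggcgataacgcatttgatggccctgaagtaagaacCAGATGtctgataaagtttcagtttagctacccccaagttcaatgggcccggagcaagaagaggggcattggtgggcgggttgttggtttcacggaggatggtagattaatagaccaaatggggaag
Between Dach1 and Rpl36a-ps1, chr14:98605860-98606060: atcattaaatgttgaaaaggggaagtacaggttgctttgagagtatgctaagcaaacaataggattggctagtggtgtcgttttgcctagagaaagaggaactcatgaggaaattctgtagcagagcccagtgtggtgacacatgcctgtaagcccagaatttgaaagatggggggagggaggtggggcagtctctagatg
Between Hpcal1 and 5730507C01Rik, chr12:17881713-17881913: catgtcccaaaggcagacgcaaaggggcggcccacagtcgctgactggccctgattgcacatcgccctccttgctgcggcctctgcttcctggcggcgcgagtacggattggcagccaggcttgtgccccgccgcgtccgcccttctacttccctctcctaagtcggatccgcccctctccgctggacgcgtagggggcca

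The second set holds the strongest member of each of the 3 largest clusters, described further on.
Between Olfr1507 and Dad1, chr14:53407623-53407823: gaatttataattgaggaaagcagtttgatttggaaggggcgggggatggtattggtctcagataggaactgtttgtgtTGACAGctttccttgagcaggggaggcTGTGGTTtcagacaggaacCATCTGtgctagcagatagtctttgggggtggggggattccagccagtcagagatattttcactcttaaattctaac
Between Adgrl2 and Adgrl4, chr3:149380173-149380373: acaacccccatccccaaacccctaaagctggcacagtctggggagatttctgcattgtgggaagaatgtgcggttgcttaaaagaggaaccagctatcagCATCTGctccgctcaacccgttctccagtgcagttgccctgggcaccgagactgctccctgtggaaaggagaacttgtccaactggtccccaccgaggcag
Between Gm5148 and Ankrd50, chr3:38094413-38094613: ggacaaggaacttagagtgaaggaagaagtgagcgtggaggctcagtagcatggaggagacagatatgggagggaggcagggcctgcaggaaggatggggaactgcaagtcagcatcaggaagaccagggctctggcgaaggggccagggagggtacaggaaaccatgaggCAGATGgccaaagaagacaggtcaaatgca

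The third set holds the strongest member beside each of the 4 blood stem cell genes that flank most desert regions.
Beside Myc, chr15:63611249-63611449: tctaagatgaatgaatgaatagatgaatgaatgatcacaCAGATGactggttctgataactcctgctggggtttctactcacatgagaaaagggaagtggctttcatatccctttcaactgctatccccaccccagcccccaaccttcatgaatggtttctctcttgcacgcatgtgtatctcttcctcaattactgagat
Beside Mycn, chr12:12570956-12571156: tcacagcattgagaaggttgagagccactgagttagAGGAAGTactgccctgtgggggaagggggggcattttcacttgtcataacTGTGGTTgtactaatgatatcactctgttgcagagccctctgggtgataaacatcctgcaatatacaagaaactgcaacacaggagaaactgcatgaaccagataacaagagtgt
Beside Bcl11a, chr11:25301228-25301428: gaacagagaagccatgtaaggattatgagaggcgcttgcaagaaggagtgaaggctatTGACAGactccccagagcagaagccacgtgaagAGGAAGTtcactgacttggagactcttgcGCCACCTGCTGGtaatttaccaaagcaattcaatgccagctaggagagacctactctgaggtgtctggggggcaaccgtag
Beside Meis1, chr11:19533869-19534069: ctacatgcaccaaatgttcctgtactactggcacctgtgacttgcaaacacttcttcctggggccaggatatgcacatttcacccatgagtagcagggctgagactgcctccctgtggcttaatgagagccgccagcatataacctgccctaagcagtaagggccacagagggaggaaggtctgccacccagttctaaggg

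The last set holds the strongest member, called in both replicates, with each of the 4 strings that had the highest ratio of their share to that of all intervals.
With the HOX and PBX string, chr5:85772162-85772362: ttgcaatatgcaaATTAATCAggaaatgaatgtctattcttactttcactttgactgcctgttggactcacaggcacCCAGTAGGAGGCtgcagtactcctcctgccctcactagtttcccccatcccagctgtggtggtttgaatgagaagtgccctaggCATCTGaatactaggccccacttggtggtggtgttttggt
With the C/EBP string, chr2:39373140-39373340: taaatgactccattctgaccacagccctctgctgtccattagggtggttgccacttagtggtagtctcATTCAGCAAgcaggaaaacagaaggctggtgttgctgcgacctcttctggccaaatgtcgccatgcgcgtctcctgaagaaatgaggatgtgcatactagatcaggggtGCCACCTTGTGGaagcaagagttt
With the RUNX string, chr7:106055180-106055380: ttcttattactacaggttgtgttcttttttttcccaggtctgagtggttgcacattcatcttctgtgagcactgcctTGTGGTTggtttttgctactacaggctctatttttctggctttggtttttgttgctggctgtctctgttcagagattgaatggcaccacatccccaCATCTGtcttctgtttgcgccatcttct
With the GATA string, chr3:50628391-50628591: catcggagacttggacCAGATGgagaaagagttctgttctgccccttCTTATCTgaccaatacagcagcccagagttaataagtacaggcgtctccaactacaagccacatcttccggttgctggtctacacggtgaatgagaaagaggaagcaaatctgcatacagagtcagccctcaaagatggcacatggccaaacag

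The signal value used throughout is the value the authors' peak caller gave each peak. It ranks peaks within a list and is not a read count, and read depth is unknown. For each member it was taken from the series-level list and, as the value of the strongest overlapping peak, from the ranked list of each replicate. A peak was called in a replicate when it overlapped that replicate's thresholded list by at least 1 bp. That list keeps peaks that rank reproducibly between subsamples of the library.

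The strongest desert region lay between Nxph1, a neurexophilin gene, and Ndufa4, a mitochondrial respiratory chain gene, at chr6:9889880-9890225. Its signal value was 35.8 in the series-level list, 32.1 in replicate 1 and 32.97 in replicate 2. Its printed window matched the mitochondrial genome over 197 bp at 99.0% identity. The next strongest lay in the gap between Pcdh7, a protocadherin gene, and G6pd2 at chr5:60042654-60043141, with 28.6 in replicate 1 and 31.2 in replicate 2. It matched mitochondrial sequence over 200 bp, and so did the member between Flrt2 and Galc at chr12:97061372-97061850, with 26.6 in replicate 1 and 26.5 in replicate 2. Nuclear copies of mitochondrial DNA are known to attract reads from mitochondria in ATAC-seq, and the part of such reads in these values was not tested.

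Of the 10 strongest members, all called in both replicates, 3 matched mitochondrial DNA and 4 had a summit 31-mer found more than once in the genome. Those 4 included the member at chr8:20122118-20122521 between Gm31371 and Gm15319, with 25.8 in replicate 1 and 21.2 in replicate 2, and the strongest member of the Olfr1507 to Dad1 gap, with 16.3 in replicate 1 and 22.0 in replicate 2. The strongest without either feature lay between Dach1, a developmental transcription factor gene, and Rpl36a-ps1 at chr14:98605813-98606118, with 21.7 in replicate 1 and 25.1 in replicate 2. It held none of the 33 strings searched, and 60.7% of its window was masked repeat. The member between Hpcal1 and 5730507C01Rik at chr12:17881342-17882050 had 22.3 in replicate 1 and 24.0 in replicate 2. Its window was 67.2% GC, well above the median member.

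The others of the 10 were at chr18:49500802-49501301 beside Dtwd2, with 20.5 in replicate 1 and 24.1 in replicate 2, and at chr17:16951031-16951673 between Rgmb and Zfp960, with 20.4 and 24.3. The summit beside Rgmb lay within 1 kb of the start of the lncRNA BC002059. The last was at chr4:28176726-28177142 between Manea and Epha7, an ephrin receptor gene, with 21.7 in replicate 1 and 19.1 in replicate 2. Over the whole class, 138 members (4.21%) had a repeated summit 31-mer, 9 matched mitochondrial DNA and 68 lay more than 50% in masked repeats. Outside the 10 strongest, the mitochondria-like member with the highest series-level value had 10.2 in replicate 1 and 7.06 in replicate 2.

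**Figure D1:**
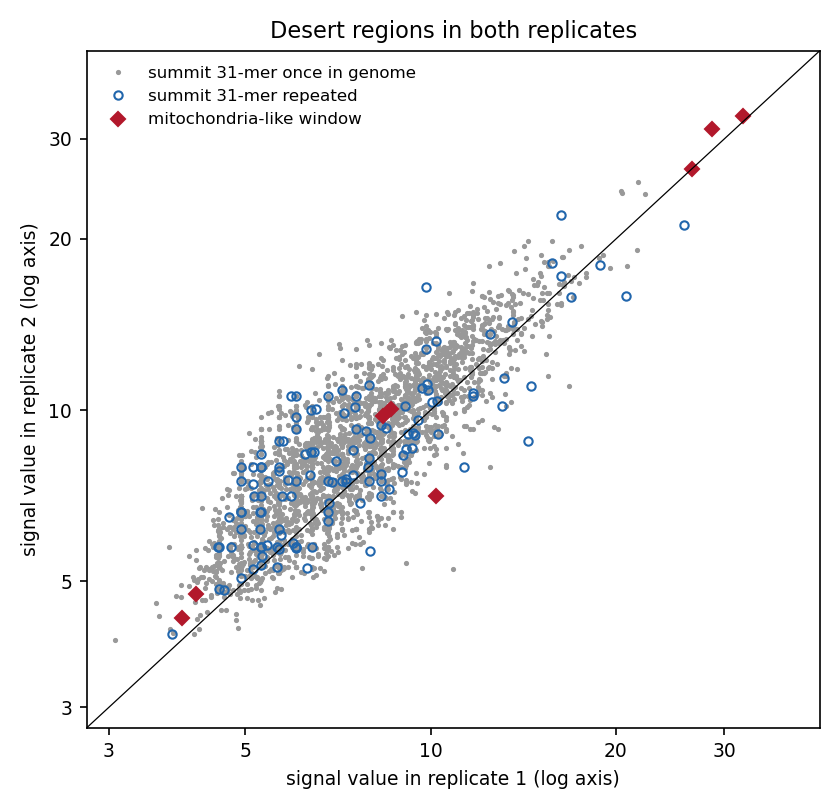
Signal value of each desert region in replicate 1 (x axis) and replicate 2 (y axis), both on log axes, with the line of equal values. Each point is 1 region listed in both ranked lists. The highest values belong to 3 mitochondria-like windows (diamonds), up to 32.1 and 32.97, while other such windows lie as low as 3.94 and 4.30. Regions with a repeated summit 31-mer (open circles) spread widely.

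Desert regions were sparse for the sequence they occupy. Desert sequence made up 31.5% of the assembled genome, 834 Mb without unknown bases, and held 3.93 regions per Mb. The 20 to 100 kb class held 13.5 per Mb, promoters 139 per Mb and the genome as a whole 16.4 per Mb. The members lay a median of 194 kb from a TSS, with quartiles of 137 and 314 kb.

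Density fell with distance. It was 6.84 per Mb at 100 to 200 kb, with 1709 regions, and 3.49 per Mb at 200 to 500 kb, with 1178. It was 1.88 per Mb at 500 to 1000 kb, with 326 regions, and 0.861 per Mb beyond 1000 kb, with 63. Signal did not fall in the same way. In those bins, from near to far, the median was 6.80, 6.96, 6.92 and 7.56 in replicate 1, and 7.94, 8.08, 8.37 and 8.19 in replicate 2. The share called in both replicates was 38.03% in the nearest bin and 38.1% in the farthest.

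Chromosomes differed in density. The median of the 19 autosomes was 4.43 desert regions per Mb of desert. Chromosome 13 was highest, with 257 regions and 6.81 per Mb, and chromosome 1 lowest among autosomes, with 202 regions and 3.11 per Mb. The X chromosome, present in 1 copy in these male cells, held 69 regions or 1.19 per Mb, and the Y chromosome 6 regions or 0.101 per Mb. Desert regions were 6.85% of all intervals on X, against 7.53% over all chromosomes. The part of copy number in these densities was not tested.

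The 100 kb limit cut through regions of like signal. The 5 members just inside it lay 100.022 to 100.241 kb from a TSS and had signal values from 6.27, between Ralgapa2 and Kiz, to 12.9, between Lnx1 and Chic2. The 5 intervals just outside it lay 99.949 to 100 kb from a TSS and had values from 6.81, between Rasgrp1 and Thbs1, to 10.7, between Clic5 and Runx2.

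Desert regions were called in both replicates in about the same share as intergenic regions at 20 to 100 kb, and more often than those at 1 to 20 kb. In the thresholded lists 1575 members (48.1%, 46.4 to 49.8) were called in replicate 1 and 1631 (49.8%, 48.1 to 51.5) in replicate 2. Both replicates called 1246 members, or 38.03% (36.4 to 39.7). The share was 38.1% (36.9 to 39.3) in the 20 to 100 kb class, 35.1% (33.9 to 36.3) in the 1 to 20 kb class, 64.3% (63.5 to 65.1) at promoters and 44.8% of all intervals. Of all members, 92.6% (91.6 to 93.4) lay on a peak of both replicates' pseudoreplicated lists, against 91.8% of all intervals. Of the 1316 members called in neither thresholded list, 1097 lay on a peak of both pseudoreplicated lists.

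The median signal value of desert regions was 8.69 in the series-level list, with quartiles of 7.01 and 10.9. It was 8.40 in the 20 to 100 kb class and 9.56 at promoters. In the ranked lists the desert median was 6.83 in replicate 1 and 7.99 in replicate 2. The 20 to 100 kb class had 6.80 in replicate 1 and 7.88 in replicate 2. The desert median was thus slightly higher in each replicate, and the classes overlapped almost wholly. The median ratio of replicate 1 to replicate 2 was 0.869 in deserts and 0.942 at promoters. Across the 3036 members listed in both ranked lists, log2 signal correlated with Pearson r of 0.847 and Spearman rho of 0.817. Regions share their libraries and are not replicates, so no p-value was attached.

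**Figure D2:**
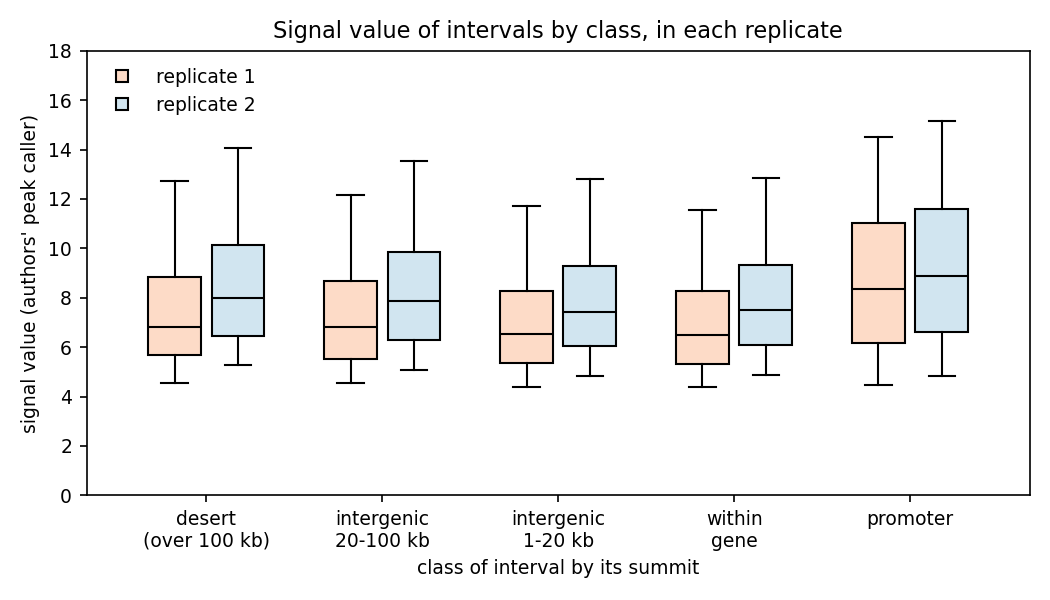
Signal value of intervals in the ranked list of each replicate (y axis) by class of summit (x axis). Boxes span the quartiles with the median as a line, and whiskers reach the 5th and 95th percentiles. Desert medians of 6.83 and 7.99 sit beside 6.80 and 7.88 in the 20 to 100 kb class.

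Desert regions were poorer in G and C than other open regions but richer than the desert around them. The median window of 100 bp to either side of the summit was 47.8% GC, with quartiles of 43.8 and 51.7%, against 50.7% in the 20 to 100 kb class, 62.2% at promoters and 39.3% in desert sequence as a whole. Observed over expected CpG had a median of 0.208, against 0.250 in the 20 to 100 kb class and 0.730 at promoters. It exceeded 0.6, a level typical of CpG islands, in 163 members (4.98%), against 8.72% of the 20 to 100 kb class. The GC medians of the 4 distance bins, from near to far, were 48.8, 47.3, 44.3 and 44.8%. The median width was 430 bp, against 424 bp in the 20 to 100 kb class and 605 bp at promoters.

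Annotated noncoding genes accounted for part of the class by position. The summit lay inside an lncRNA gene in 611 members (18.7%), against 14.1% of the 20 to 100 kb class. It lay within 1 kb of an lncRNA start in 164 members (5.01%), against 6.26% of all intervals. Those 164 were called in both replicates in 47.0% of cases (39.5 to 54.6), against 37.6% (35.9 to 39.3) of the other members, and their median window was 51.5% GC against 47.8%.

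Motif strings were counted in the same windows on both strands. The strings were ETS AGGAAGT, its PU.1 form GAGGAAGT, which contains the ETS string, and its CpG form CCGGAAGT. The others were RUNX TGTGGTT, for GATA factors AGATAAG, for the E-box of TAL1 and E proteins CAGATG, AP-1 TGANTCA, C/EBP TTGCNNAAT, MEIS TGACAG and HOX with PBX TGATTNAT. Further ones were SOX ACAAAG, NFI TTGGCA, TCF and LEF ATCAAAG, the PAR bZIP family of HLF TTACNTAA and KLF and SP GGGCGG, with CTCF and IRF by longer consensus strings. A match is a string in the reference and not a bound site.

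Of 33 strings, 18 had a desert interval wholly above the share of all intervals and 7 wholly below it. Against the 20 to 100 kb class 10 lay above and 3 below. Members are part of all intervals, which narrows the first comparison, and the windows are poorer in GC.

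The HOX and PBX string, the site of homeobox partners that act in stem cell self-renewal, was the most raised of the 33 as a ratio to all intervals. It stood in 129 members (3.94%, 3.32 to 4.66), against 2.35% (2.00 to 2.76) of the 20 to 100 kb class and 1.92% of all intervals. The C/EBP string, of myeloid factors, stood in 108 (3.30%, 2.74 to 3.96), against 2.12% in the 20 to 100 kb class and 1.9% of all intervals. RUNX strings stood in 544 (16.6%, 15.4 to 17.9), against 13.6% and 10.6% in the same classes. ETS strings stood in 839 (25.6%, 24.1 to 27.1), against 22.3% and 18.6%.

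The same directions held in each replicate's own thresholded list for most of these strings. Replicate 1 alone gave 1654 desert regions and replicate 2 alone 1708. The HOX and PBX string stood in 3.87% (3.04 to 4.91) of desert regions of replicate 1, against 1.66% of all its intervals, and in 3.57% (2.79 to 4.56) in replicate 2, against 1.7%. ETS strings stood in 27.0% against 18.2% in replicate 1 and 27.6% against 18.6% in replicate 2. RUNX strings stood in 18.02% against 10.1% in replicate 1 and 18.1% against 10.5% in replicate 2. The CTCF string did not separate from all intervals, with 8.10% (6.88 to 9.52) against 7.85% in replicate 1 and 8.20% (6.99 to 9.59) against 8.24% in replicate 2. Against the 20 to 100 kb class it was lower in both, with 8.10% against 11.5% in replicate 1 and 8.20% against 12.4% in replicate 2.

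Further strings were also above the share of all intervals. The GATA string, of erythroid and stem cell factors, stood in 4.49% (3.83 to 5.25) of members against 2.88% of all intervals. IRF strings, of interferon regulatory factors, stood in 5.37% (4.65 to 6.20) against 3.46%. PU.1 stood in 11.5% (10.5 to 12.6) against 8.21%, and AP-1 in 11.1% (10.1 to 12.2) against 8.1%. SOX stood in 19.1% (17.8 to 20.5) against 13.5%, the PAR bZIP string of HLF in 2.32% (1.86 to 2.89) against 1.5%, and TCF and LEF in 2.72% (2.21 to 3.33) against 1.93%. NFI stood in 14.3% (13.1 to 15.5) against 11.2%. MEIS stood in 18.4% (17.1 to 19.8) against 16.1%, and the E-box of TAL1 and E proteins in 17.9% (16.6 to 19.2) against 14.6%. AP-1, TCF and LEF, HLF and the TAL1 E-box were not wholly above the 20 to 100 kb class.

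Promoter strings were scarce in deserts. KLF and SP strings, GC boxes common at promoters, stood in 5.65% of members (4.91 to 6.49), against 10.4% of the 20 to 100 kb class and 22.8% of all intervals. The CpG form of the ETS string stood in 0.611% (0.396 to 0.941), against 2.34% of all intervals. CTCF strings stood in 318 members (9.71%, 8.74 to 10.8), against 14.3% (13.5 to 15.2) in the 20 to 100 kb class and 10.8% of all intervals. They are not promoter strings here, as 4.63% of promoter windows held one.

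**Figure D3:**
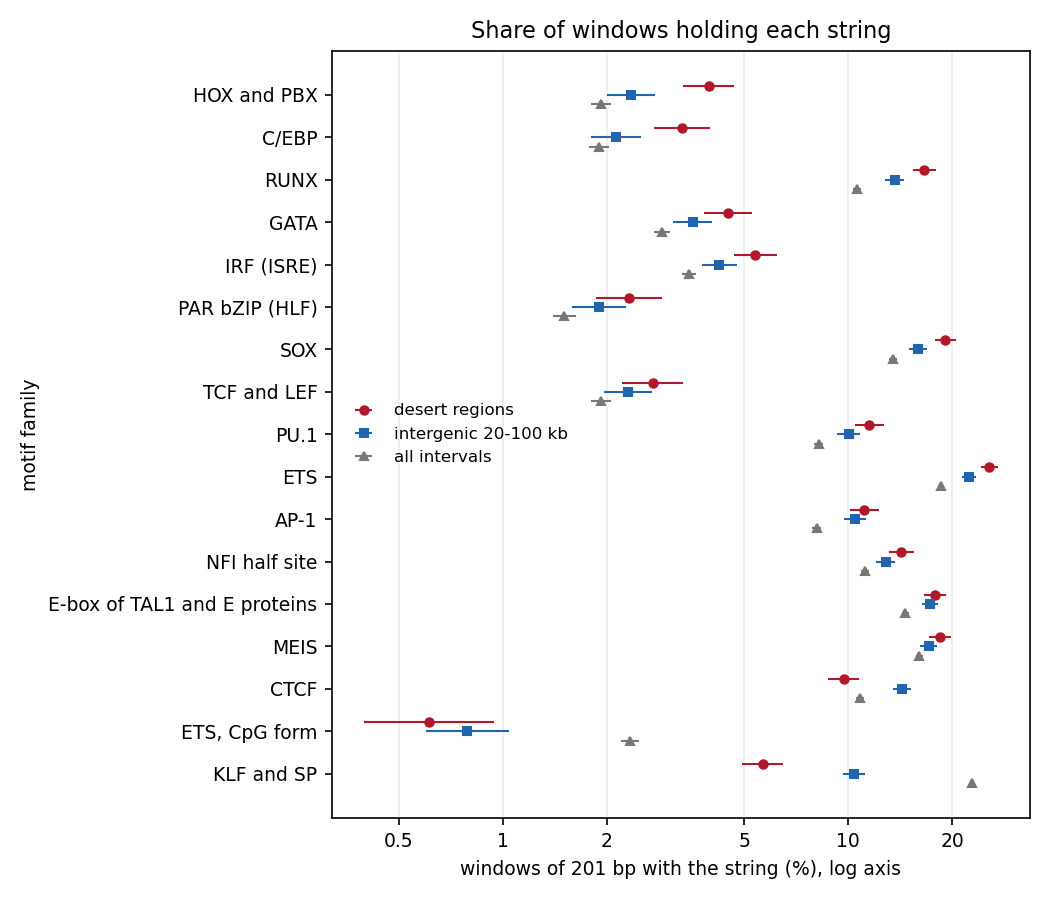
Share of windows of 100 bp to either side of the summit with each string (x axis, percent, log axis) for desert regions (circles), the 20 to 100 kb class (squares) and all intervals (triangles), with 95% Wilson intervals that cover counting of regions only. HOX and PBX at the top has 3.94% against 2.35% and 1.92%, and KLF and SP at the bottom 5.65% against 10.4% and 22.8%.

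Base content was held closer by taking windows of 40 to 50% GC only, which kept 1802 members, 2594 of the 20 to 100 kb class and 13804 of all intervals. Then 7 strings lay above the share of all intervals: ETS, PU.1, RUNX, C/EBP, HOX and PBX, NFI and SOX. CTCF and KLF and SP lay below it. Against the 20 to 100 kb class in such windows 7 strings lay above and 3 below. SOX, with 21.1% (19.3 to 23.1) against 19.8%, was not wholly above that class. The HOX and PBX string stood in 4.16% of these members (3.33 to 5.19), against 2.81% in the 20 to 100 kb class and 3.14% of all intervals. RUNX stood in 19.7% (17.9 to 21.6) against 16.8% and 16.2%, C/EBP in 4.16% (3.33 to 5.19) against 2.58% and 3.17%, and CTCF in 9.27% (8.01 to 10.7) against 15.03% and 12.9%. GATA, with 5.11% (4.18 to 6.22) against 4.36% of all intervals, was no longer wholly above it.

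The strings differed in where they stood in the window. Of 319 CTCF matches, 68.7% were centred within 25 bp of the summit, where 26.3% of possible positions lie. ETS had 40.3% of 930 matches there, PU.1 43.5% of 384, GATA 38.4% of 151, RUNX 37.9% of 609 and AP-1 33.2% of 395, with 25.8 to 26.2% of positions. C/EBP had 25.9% of 108, close to its 26.4% of positions. HOX and PBX had 16.5% of 133 and SOX 19.2% of 687, below their 25.8% and 25.5% of positions. HOX and PBX, the string most raised over all intervals, was thus not centred on summits.

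Members with RUNX or ETS strings were also slightly stronger, which was not particular to these 2 strings. With a KLF and SP string the median was 7.49 in replicate 1 and 8.35 in replicate 2, against 6.80 and 7.94 in members without. With a RUNX string the median signal was 7.18 in replicate 1 and 8.45 in replicate 2, against 6.80 and 7.94 in members without. With an ETS string it was 7.13 in replicate 1 and 8.31 in replicate 2, against 6.80 and 7.94. The RUNX string stood in 19.4% (17.2 to 21.9) of the strongest 1092 members and 14.4% (12.4 to 16.6) of the weakest 1092. HOX and PBX strings showed no such step, with 3.85% (2.86 to 5.16) and 4.95% (3.81 to 6.40).

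String shares differed between the distance bins. The GC medians of these bins also differed, with 48.8, 47.3, 44.3 and 44.8% from near to far. The part of base content in the shares was not tested, and the shares by bin are given without intervals. The HOX and PBX string stood in 3.16, 4.50 and 6.44% of members at 100 to 200, 200 to 500 and 500 to 1000 kb. The RUNX string stood in 14.9, 18.1 and 19.02%. Beyond 1000 kb, over 63 members, the shares were 1.59% for HOX and PBX and 23.8% for RUNX. ETS showed no steady order, with 24.0, 28.9, 23.6 and 17.5% over the 4 bins. ETS and RUNX strings stood together in 141 members (4.30%, 3.66 to 5.05), against 2.45% of all intervals. In deserts that share was 1.01 times the product of the separate shares, and 1.24 times in all intervals.

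The genome held 1898 gaps between protein-coding genes with desert sequence, and 930 of them (49.0%, 46.8 to 51.2) held a desert region. The gaps with a region were longer, with a median of 522 kb against 296 kb for the others. Of the 930 gaps, 326 held 1 region, while 57 held 10 or more and together 800 regions. The 930 gaps were flanked by 1669 protein-coding genes. Of these, 44.6% (42.2 to 47.0) had a promoter peak in both replicates' thresholded lists, against 30.9% (28.5 to 33.4) of 1411 genes that flank only desert gaps without a region and 42.5% of all protein-coding genes. In the pseudoreplicated lists the shares were 68.3% (66.0 to 70.5), 46.1% (43.6 to 48.7) and 59.5%. The interval in the thresholded lists includes the share of all genes. With genes of every biotype counted as genes, which left 415 regions, the share was 39.95%. That value is below 42.5%, but no interval is given for it. The flanking genes of gaps with 5 or more regions reached 49.4% (44.9 to 54.0) in the thresholded lists.

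The flanking genes beside most regions were Dad1 and Olfr1507, at either end of the T cell receptor alpha and delta locus, with 66 regions each. Adgrl2, an adhesion receptor gene, flanked 37 regions over both its sides, and its neighbour Adgrl4, an adhesion receptor gene of endothelium, 27. Adam6a and Zfp386, at either end of the immunoglobulin heavy chain variable segments, flanked 34 each. Acvr2a, an activin receptor gene, Agtr1b, Tbl1xr1 and Zeb2 flanked 21 each. Dad1, Adgrl2, Adgrl4 and Zfp386 had a promoter peak in both thresholded lists. Acvr2a, Tbl1xr1 and Zeb2 had one in both pseudoreplicated lists only, and Olfr1507, Adam6a and Agtr1b in neither pair of lists.

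Desert beside genes of blood regulators was denser in open regions than desert at large. Around the 9 blood stem cell transcription factor genes that flank a desert gap, 83 regions lay in 8.41 Mb of desert, or 9.87 per Mb, against 3.93 per Mb over all desert. Blood lineage transcription factor genes had 187 regions and 9.46 per Mb, with 23 of 50 genes flanking a gap with a region. Blood receptor and cytokine genes had 35 regions and 12.1 per Mb. Genes listed as nonblood developmental transcription factors, with Klf6 and Bcl11b among them, had 209 regions and 4.06 per Mb. Of the genes on that list, 55 of 111 flanked a gap with a region. Neural adhesion and synapse genes had 166 regions but 134.5 Mb of desert, or 1.23 per Mb. Endothelial and stromal markers had 18 regions and 5.86 per Mb. None of the 16 lymphoid and 15 myeloid markers flanked a desert gap. Gaps differ in length and density falls with distance, and lists were not tested against each other.

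**Figure D4:**
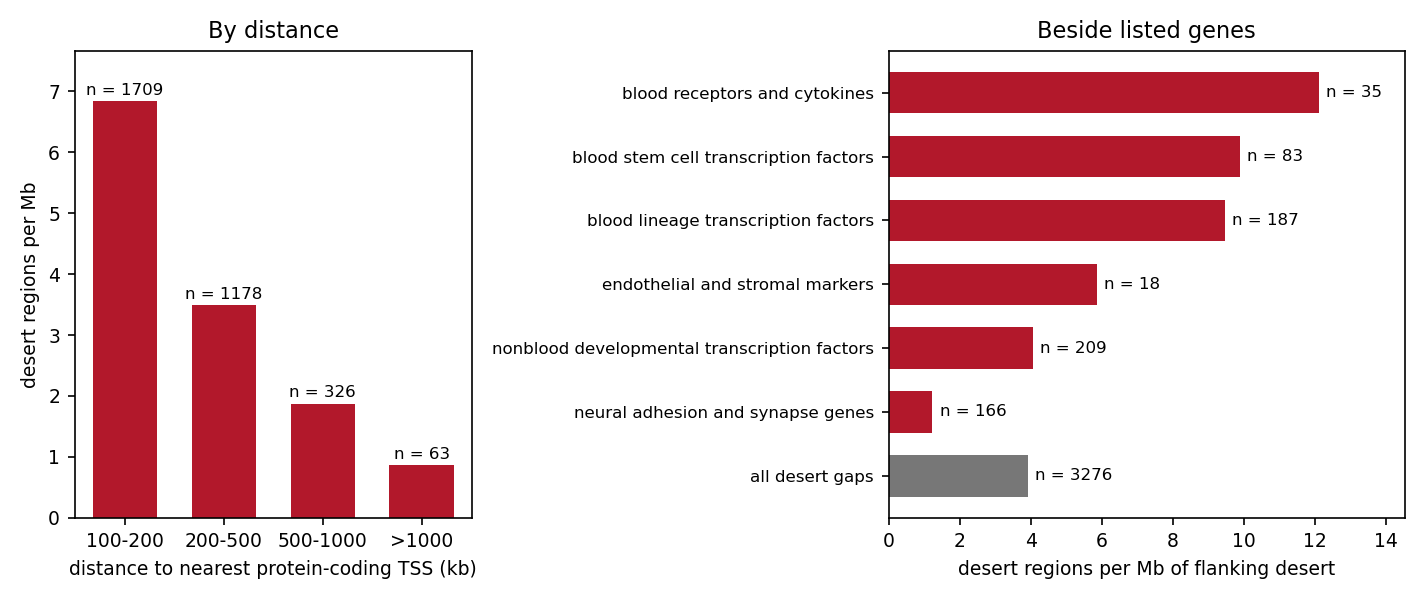
Desert regions per Mb of desert sequence (left, y axis) by distance to the nearest TSS, and (right, x axis) beside the genes of each list with 2 or more such genes, with all desert in grey at the bottom. Counts of regions stand on the bars. Density is 6.84 per Mb at 100 to 200 kb and 0.861 beyond 1000 kb, and 9.87 per Mb beside blood stem cell factors against 3.93 over all desert.

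Myc, a driver of cell growth and division, flanked 16 members, of which 6 were called in both replicates. They formed separate groups: 3 lay 214 to 828 kb upstream of the 5′ end of the gene, 4 lay 121 to 225 kb downstream inside the lncRNA gene Pvt1, and 9 lay 1513 to 1719 kb downstream inside the lncRNA gene Gm41335. The stretch far downstream of Myc is known to hold enhancers active in blood stem cells. The strongest member, chr15:63611013-63611559, had 11.7 in replicate 1 and 12.6 in replicate 2 and lay 1626 kb from the 5′ end of Myc. Its printed window held an E-box of TAL1 and E proteins. The next strongest, chr15:63648019-63648660, had 13.2 in replicate 1 and 10.7 in replicate 2.

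Mycn, a close relative of Myc, flanked 15 members in 0.547 Mb of desert, or 27.4 per Mb, and 7 were called in both replicates. All 15 lay in the gap between Fam49a and Mycn. The strongest, chr12:12570900-12571446, had 12.6 in replicate 1 and 11.3 in replicate 2, with an ETS and a RUNX string in its window. It lay 309 kb from the nearest TSS and 370 kb from that of Mycn. The member at chr12:12809954-12810577, 132 kb downstream of the 5′ end, had 10.9 in replicate 1 and 13.2 in replicate 2. Of the 15 members, 13 lay 258 to 545 kb downstream.

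Bcl11a, a repressor that silences fetal globin and is needed for lymphoid cells, flanked 14 members. Of these 11 lay 165 to 387 kb downstream of its 5′ end and 3 lay 1027 to 1223 kb downstream. The strongest, chr11:25301038-25301518, was in the far set, with 8.70 in replicate 1 and 11.9 in replicate 2. Its window held ETS, CTCF and MEIS strings.

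Meis1, a homeobox factor needed to maintain blood stem cells, flanked 14 members, 9 upstream at 313 to 805 kb and 5 downstream at 197 to 867 kb. The strongest, chr11:19533819-19534098, had 9.40 in replicate 1 and 10.8 in replicate 2 and none of the strings searched. A HOX and PBX string stood in 3 of the 14, at chr11:18151872-18152097, chr11:18272402-18272745 and chr11:19380944-19381649.

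Runx1, a factor required for the emergence of blood stem cells, flanked 7 members, all upstream at 102 to 628 kb. The member at chr16:93028717-93029049 stood apart, with 11.1 in replicate 1 and 12.4 in replicate 2. The other 6 had at most 5.73 in replicate 1 and none above 8 in replicate 2, and only the strongest was called in both. Ikzf2, which encodes Helios, flanked 8 members at 158 to 445 kb downstream, the strongest at chr1:69241808-69242291 with 11.4 in replicate 1 and 13.1 in replicate 2. Mllt3, which maintains stem cells in human blood, flanked 6 members at 463 to 665 kb downstream, and 5 of them were called in both replicates. Its strongest, chr4:87434114-87434517, had 11.3 in replicate 1 and 10.5 in replicate 2.

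Mecom, which encodes the self-renewal factor EVI1, flanked 1, at chr3:29730170-29730687, with 8.30 in replicate 1 and 8.62 in replicate 2.

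**Figure D5:**
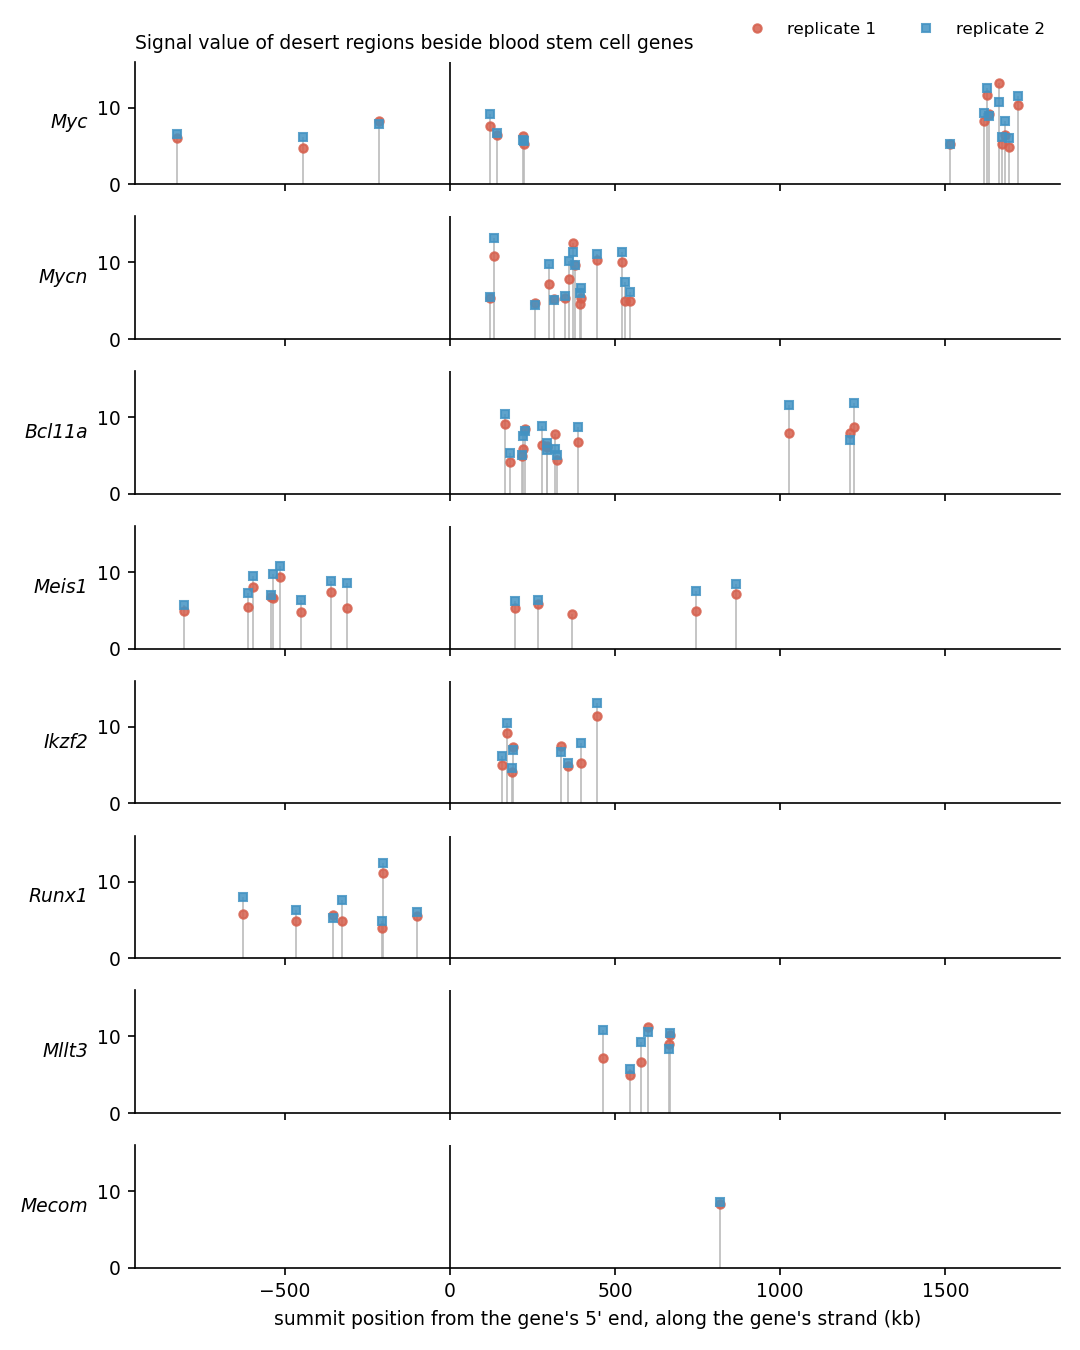
Desert regions beside the 8 flanking blood stem cell factor genes that have a region called in both replicates, by position of the summit from the 5′ end along the strand of the gene (x axis, kb, negative upstream) and signal value in replicate 1 (circles) and replicate 2 (squares) (y axis). The 9 far regions of Myc lie 1513 to 1719 kb downstream, and those of Runx1 lie upstream.

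Of the blood lineage factors, Zeb2, a transcriptional repressor active in blood progenitors, flanked 21 members in 3.50 Mb of desert that it shares with Acvr2a. The strongest, chr2:46370780-46371413, lay 1254 kb from its TSS and had 15.1 in replicate 1 and 14.1 in replicate 2. Id2, an inhibitor of E proteins, flanked 17, the strongest at chr12:25438087-25438835 with 9.95 in replicate 1 and 12.1 in replicate 2. Sox4, a factor of early lymphoid cells, flanked 17, the strongest at chr13:28512491-28513159 with 12.3 in replicate 1 and 14.5 in replicate 2 and a HOX and PBX string.

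Among receptor genes, Kit, the stem cell factor receptor, flanked 9 members. Of these 8 lay between it and Kdr, a receptor of endothelial growth factor, so the same 8 count for both genes. The strongest, chr5:75791786-75792119, had 7.97 in replicate 1 and 11.2 in replicate 2 and was not called in both. Cxcr4, the receptor that holds stem cells in marrow, flanked 8, with the strongest at 12.3 in replicate 1 and 10.4 in replicate 2. Tgfbr2, a receptor of transforming growth factor beta, flanked 8, with the strongest at 11.7 in replicate 1 and 13.04 in replicate 2.

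Genes listed for other tissues also flanked many members. Dcn, which encodes the matrix protein decorin, flanked 7, with the strongest at 12.4 in replicate 1 and 11.8 in replicate 2. That member lay 728 kb from the TSS of Dcn, in the gap between Btg1 and Dcn. Cdh5, a cadherin of endothelium, flanked 1. Among neural genes, Flrt2 flanked 19, its strongest being the mitochondria-like member above, Csmd3 flanked 12 and Pcdh17 flanked 12. The strongest beside Csmd3 had 12.8 in replicate 1 and 13.5 in replicate 2, and beside Pcdh17 11.2 and 13.6 in the same order of replicates. Among developmental factors, Sall3 flanked 16, Klf6 15 and Dach1 14. Of these, only Klf6 had a promoter peak in both thresholded lists. The strongest beside Klf6, chr13:4771123-4771881, had 17.6 in replicate 1 and 19.4 in replicate 2, among the highest values of any member beside a listed gene.

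Desert regions often lay near each other. With neighbouring summits at most 50 kb apart joined within a gap, 2144 members (65.4%, 63.8 to 67.1) fell into 671 clusters of 2 or more and 1132 stood alone. The share was 69.8% (68.6 to 70.9) in the 20 to 100 kb class. There were 99 clusters of 5 or more, with 717 members. These were called in both replicates in 41.4% of cases, against 38.2% of the 1427 members in clusters of 2 to 4 and 35.7% of the single ones. The share of all intervals was 44.8%. Median signal did not rise with cluster size. In the same order it was 6.80, 6.91 and 6.80 in replicate 1 and 7.91, 7.94 and 8.15 in replicate 2. ETS strings stood in 28.3, 26.2 and 23.1% of members in the same order, and CTCF strings in 7.25, 9.04 and 12.1%.

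Apart from an antigen receptor locus, the largest clusters held 15 or 11 regions. The cluster between Adgrl2 and Adgrl4 held 15 over 288 kb, 8 of them called in both replicates, with a median signal of 10.9. The clusters of 11 lay between Gm5148 and Ankrd50 over 207 kb, between Eef2kmt and Rbfox1, a neural splicing factor gene, over 114 kb, and between Jun, an AP-1 subunit gene, and Fggy over 197 kb. Their median signals were 6.69, 8.72 and 8.32, with 5, 5 and 6 regions called in both replicates. None of the 4 held a repeated summit 31-mer.

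The largest cluster lay in the T cell receptor alpha and delta locus, whose variable segments are not protein-coding entries of the annotation, so that it counted as desert. It held 62 regions over 1093 kb between Olfr1507 and Dad1. Of these, 56 had a summit 31-mer found more than once in the genome and 13 were called in both replicates. Over the genome, 72 members lay within 1 kb of an immunoglobulin or T cell receptor segment. They were called in both replicates in 19.4% of cases (11.95 to 30.03), and 45 of the 72 had a repeated summit. Their median signal was 6.05 in replicate 1 and 7.73 in replicate 2, against 6.83 and 7.99 for the whole class. Whether reads shared between like segments raise or lower these values was not tested.

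The position of the summit in the segment differed between the loci, a pattern noted after the values were seen. At 41 regions beside T cell receptor alpha and delta segments the summit lay a median of 126 bp upstream of the start of the segment, with quartiles of 76 and 176 bp, and it was upstream in 38. At 24 regions beside immunoglobulin heavy chain segments it lay a median of 59 bp downstream of the end of the segment, with quartiles of 24.5 and 79.2 bp, and it was downstream in 20. Variable segments have their promoter upstream and their recombination signal just downstream. CTCF strings stood in 18 of the 41 and in 2 of the 24. A repeated summit 31-mer stood in 36 of the 41 and 7 of the 24.

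The members farthest from any protein-coding TSS lay in gaps beside neural adhesion genes. The farthest, chr1:102628181-102628381, lay 2140 kb from a TSS between Cntnap5b and Cdh20, with 10.2 in replicate 1 and 9.27 in replicate 2. The next, chr5:59996543-59997157, lay 1812 kb away between Pcdh7 and G6pd2, with 14.3 in replicate 1 and 18.5 in replicate 2 and ETS and PU.1 strings. The third was the mitochondria-like member in the same gap. The longest gaps with a member were nearly empty: 3 members in the 4.67 Mb between Tenm3 and Aga, 4 in the 4.52 Mb between Celf4 and Pik3c3, and 1 in the 4.42 Mb between Olfm4 and Pcdh17.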

How the data were processed

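ATAC-seq peak lists of 1 group of 2 mouse hematopoietic stem cell libraries were analysed. Peaks, their signal values and their −log10 p-values are as the authors deposited them, on mm10, without read counts. For the aligner, the peak caller and their settings, a name was not given in the sources used here. Per the labels, the series-level lists were derived from the alignments of both libraries. Lists marked IDR hold peaks kept or ranked by the irreproducible discovery rate.

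Intervals were placed by their summit on the GENCODE M21 genes of GRCm38. The signal value served for ranks and medians inside 1 list at a time. Sequence came from the RefSeq copy of GRCm38. Summit 31-mers were counted over the genome on both strands, and windows were aligned to the mitochondrial genome with BLAST 2.17.0 at an E-value limit of 1e-10. Clusters joined summits at most 50 kb apart in 1 gap. Shares have 95% Wilson intervals, which cover counting of regions only. Regions are not replicates and 2 libraries in 1 group allow no test between samples, so no p-value is given.

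Members and lists were chosen with earlier results of these data known. The genes and regions named are the 10 strongest members called in both replicates, the 5 largest clusters, the 10 flanking genes beside most members, every flanking blood stem cell gene, up to 3 flanking genes of each other list, the 3 farthest members, the 3 longest gaps with a member and the 5 intervals on each side of the limit. Of the genes the rule names, 2 are not reported here. Members named for a mitochondrial match, an lncRNA, a HOX and PBX string or an antigen receptor segment, and the second regions named beside Myc and Mycn, were chosen after their values were seen.

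Alternatives were other lists, limits, biotypes, windows, overlaps and joining distances and each replicate alone. Windows of 40 to 50% GC and lists without mitochondria-like windows or antigen receptor segments were added after seeing the data. Python 3.11.15 with pandas 2.3.3, numpy 2.4.6, scipy 1.17.1 and pysam 0.24.0 was used, and the counting was tested on simulated data.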

Additional observations from a re-analysis of the deposited data

How the results depend on the processing

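The main values were a share of 7.53% desert regions, 38.03% of them called in both replicates, a median signal percentile of 53.1 among all intervals, 47.8% GC, 18 strings above the share of all intervals, 44.6% of flanking genes with an open promoter, 65.4% of regions in clusters and a replicate correlation of 0.847. Of 118 alternative values, 57 lay within the counting interval or spread of the main one and 61 moved beyond it. The cause of these moves was not tested.

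The list named conservative was the longer of the series-level IDR-thresholded lists, and how they differ in making is not stated in the labels. The other gave 2599 desert regions, and the share was 7.21%, calling 47.9%, GC 48.3%, clustering 60.02% and the correlation 0.774. A limit of 50 kb gave a share of 13.1%, GC of 48.8% and clustering of 69.5%. A limit of 200 kb gave 3.60%, a percentile of 55.4, GC of 46.3% and clustering of 59.03%. With genes of every biotype as genes, 415 regions were left, a share of 0.955%. This setting removes lncRNA genes, pseudogenes, antigen receptor segments and all other annotated genes, with their surroundings. Calling was then 40.96%, the percentile 59.9, GC 46.3% and clustering 42.7%. Open flanking promoters were 39.95%, without an interval, against 42.5% of all genes. In the strongest 50% of intervals the share was 8.01%, calling 65.1%, GC 48.3%, clustering 44.7% and the correlation 0.741. The percentile, taken among those intervals only, was 47.01, below their middle.

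Counting every summit gave a share of 6.87%. An overlap of 50% of both peaks gave calling of 36.4%, and the pseudoreplicated lists gave 92.6% and open flanking promoters of 68.3%. Windows of 50 bp to either side of the summit had 49.5% GC. In windows of 40 to 50% GC, 7 strings lay above the share of all intervals. Joining at a shorter distance put 34.7% of regions in clusters, and joining at 100 kb put 75.5%. Taking members from 1 replicate's thresholded list at a time gave shares of 6.58 to 6.97%, percentiles of 51.0 to 53.5 and GC of 48.3% in both cases. It also gave 16 to 18 strings, open flanking promoters of 45.5 to 45.7% and clustering of 48.3 to 49.6%. Calling, here the share that also overlapped the other replicate's thresholded list, was 73.5 to 76.2%. The correlations, which still used both replicates, were 0.745 to 0.767.

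No paired analysis was possible because the series has 1 group. Read depth is unknown, so a region absent from a list cannot be told from one below its threshold.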
